A study of Mus musculus with 2 samples.

Results

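The nuclear genome encodes most subunits of the 5 complexes of oxidative phosphorylation, and 85 such genes of the 32285 in the deposited feature list are described here. They were taken by symbol alone, as every gene whose name begins with Nduf followed by a, b, c, s or v and a digit, with Cox4 to Cox8, with Uqcr or with Atp5, together with Sdha, Sdhb, Sdhc and Sdhd. No measured value entered that choice. Grouped by the complex that each protein belongs to, they were 36 genes of complex I (NADH dehydrogenase), 4 of complex II (succinate dehydrogenase), 8 of complex III (cytochrome bc1), 17 of complex IV (cytochrome c oxidase) and 17 of complex V (ATP synthase). Ndufa4 and its paralog Ndufa4l2 were kept apart as a pair, because Ndufa4 carries a complex I name while its protein is found with complex IV. Cox7a2l, known as a factor of supercomplexes (complexes joined to each other), was kept on its own. The symbol rule leaves out a few subunits with other names (Ndufab1, Cyc1) and the 13 subunits that the mitochondrial genome encodes, and their values are given beside those of the members.

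Oxidative phosphorylation passes electrons from NADH and succinate through complexes I to IV to oxygen, pumps protons across the inner mitochondrial membrane, and lets them flow back through complex V to make ATP. Each complex other than complex II joins nuclear-encoded subunits to mitochondrial-encoded ones, so its parts are transcribed in 2 compartments. Several complex IV subunits exist as ubiquitous and tissue-restricted isoforms, and Ndufa4l2 is known as a gene induced by low oxygen. Hair follicle stem cells of the resting follicle are slow-cycling cells known for a strongly glycolytic metabolism, and after a wound their progeny leave the follicle to help close the skin.

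The study asked how loss of Phgdh, the first enzyme of serine synthesis, bears on cells of the Sox9 lineage in resting and wounded mouse skin. All mice carried Sox9-CreER and R26-LSL-YFP on the C57B6/J strain, with Phgdh +/+ or Phgdh fl/fl alleles, so that YFP and, in fl/fl mice, deletion of Phgdh follow Cre activity driven by Sox9. Skin was unwounded or taken 3 or 5 days after wounding. Unwounded cells were sorted as live and YFP+, high in integrin-α6, positive for CD34 and CD200 and without SCA1. Wounded cells were sorted as live, YFP+ and high in integrin-α6 with no SCA1, CD34 or CD200 gate, and both sorts removed cells with CD140a, CD117, CD31 or CD45. Each of the 6 conditions was marked with 1 hashtag and all were captured together, so each condition is 1 pool of cells from pooled animals. There was no replicate and no test was possible. "Higher" and "lower" describe these pools, and all intervals are 95% intervals that cover counting error only.

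Of +/+ mice, 406 unwounded cells, 1281 at 3 days and 1353 at 5 days were used, and of fl/fl mice 662, 523 and 1434. Total UMIs per pool, each UMI being 1 counted molecule, ran from 3241223 (unwounded +/+) to 70925244 (5 days fl/fl). Unwounded cells were shallower, with medians of 7174.5 and 7243 UMIs per cell against 36277 to 45701.5 in the wounded pools. Phgdh, the targeted gene, was present at 54.3, 116.8 and 138.3 CPM (UMIs per 1000000 UMIs of a pool) in the unwounded, 3 day and 5 day +/+ pools, and its fl/fl levels were 25.2, 15.3 and 20.2 CPM. Of the unwounded cells, 391 of 406 (+/+) and 636 of 662 (fl/fl) fell in clusters named bulge-like from their markers. The wounded pools had 40, 12, 26 and 8 such cells (3 days +/+, 3 days fl/fl, 5 days +/+, 5 days fl/fl). Cluster 3, left unnamed, also had 8 of 8 bulge markers raised, beside 3 of 5 melanocyte markers. It held 194, 91, 145 and 55 cells of the same wounded pools. The 8 bulge markers summed to 16609.5 and 17650.0 CPM in unwounded pools and to between 334.0 and 1055.3 CPM in wounded ones. Of the markers of other cells, the 5 melanocyte genes summed to 596.1 and 515.4 CPM unwounded and to 16.9 to 32.9 CPM wounded, with Dct and Tyrp1 at 0 in unwounded +/+. The 5 neutrophil genes, of which S100a8 and S100a9 are keratinocyte genes too, summed to 28.7 CPM or less unwounded and to 294.6 to 989.4 CPM wounded. The part of these cells in the results below was not tested. Each wounded pool was therefore compared with a pool of largely other cell kinds, taken through another sort, and wounding, cell kind, gate and depth cannot be told apart in these comparisons. In summed pools, more cells with a transcript and more transcript per cell cannot be told apart either.

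The 85 members took a larger share of the UMIs in every wounded pool than in either unwounded pool. Their summed level was 16271 CPM in unwounded +/+ cells and 17181 CPM in unwounded fl/fl cells. At 3 days it was 23593 CPM (+/+) and 24385 CPM (fl/fl), and at 5 days 23674 and 23601 CPM. The wounded pools thus lay within a narrow band of each other and all above the unwounded ones. The per-cell share of UMIs had a median of 1.62% in unwounded +/+ and 1.71% in unwounded fl/fl cells, against 2.33% to 2.45% in the wounded pools. The 13 mitochondrial-encoded subunits went the other way in CPM, with 50143 and 49993 CPM in the unwounded pools and 38468 to 40722 CPM in the wounded ones. Their summed log2 fold at 3 days in +/+ was -0.34, or 0.22 with TMM factors, a scaling described below.

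**Figure D1:**
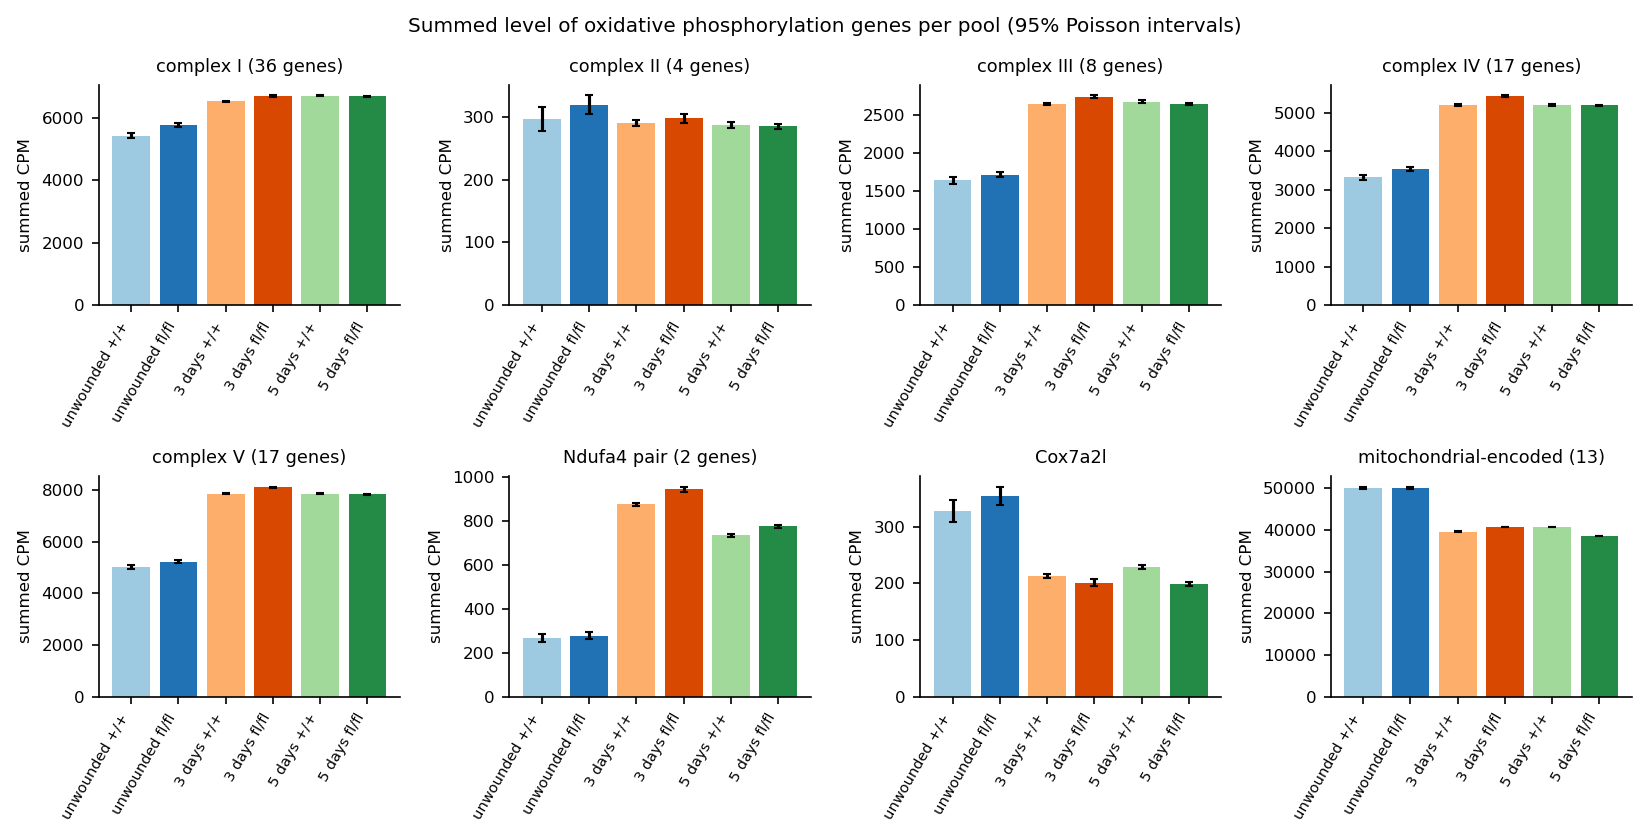
Summed CPM of the members of each complex, of the Ndufa4 pair, of Cox7a2l and of the mitochondrial-encoded subunits in each of the 6 pools, with 95% Poisson intervals for counting error; each panel has its own axis from 0. Complexes III, IV and V stand higher in all 4 wounded pools, complex I by less, complex II about level, and Cox7a2l and the mitochondrial-encoded subunits lower; with TMM scaling, complex II and the mitochondrial-encoded subunits are higher too and Cox7a2l is higher at 5 days in +/+.

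The complexes differed in how far they stood above the unwounded level. Complex V summed to 4999 CPM (4923 to 5077) in unwounded +/+ cells and to 7856 CPM (7832 to 7879) at 3 days, a ratio of 1.57. The corresponding ratios were 1.61 for complex III, 1.56 for complex IV and 1.20 for complex I, and complex II stood at 0.98 of its unwounded level. The Ndufa4 pair had the largest ratio, 3.28. This order, with the pair first, then complexes III to V close together, then complex I and then complex II, was the same for the log2 ratios of sums in fl/fl cells at 3 days (1.76 for the pair, 0.67, 0.62 and 0.63 for complexes III, IV and V, 0.21 for complex I, -0.10 for complex II). At 5 days complex I stood 0.31 and 0.21 above the unwounded sum on the log2 scale in +/+ and fl/fl cells, and complex II at -0.05 and -0.16. The comparisons at 3 and 5 days share their unwounded pool within a genotype, so they are not independent of each other.

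Of the 85 members, 78 had a mean of at least 10 CPM in every comparison and are called measured below. At 3 days in +/+ cells, 70 of the 78 were higher than in unwounded cells and 8 were lower, with a median log2 fold of 0.55. Of all measured genes, 41.7% (3 days +/+), 39.3% (5 days +/+), 41.4% (3 days fl/fl) and 41.3% (5 days fl/fl) were higher. A fold of at least 1.5 upward was reached by 32 members (41.0%), against 20.7% of all 8637 measured genes and 31.2% of the genes of at least 100 CPM, a level nearer to that of most members. A fold of at least 1.5 downward was reached by 3 members (3.85%), against 37.6% of all measured genes. The median of all measured genes was -0.22, and 73 of the 78 members lay above it. In fl/fl cells at 3 days, 68 members were higher, the median was 0.49, and 33 members (42.3%) were at least 1.5-fold higher, against a background of 21.2%. At 5 days the medians were 0.56 (+/+) and 0.48 (fl/fl), with 36 members (46.2%, background 19.5%) and 31 members (39.7%, background 21.4%) at least 1.5-fold higher. Among genes of at least 100 CPM the upward background was 32% (3 days fl/fl), 30.2% (5 days +/+) and 31.7% (5 days fl/fl). Downward, 3 (fl/fl at 3 days), 2 (+/+ at 5 days) and 4 members (fl/fl at 5 days) passed 1.5-fold, against 37%, 38.6% and 37.3% of all genes.

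These directions depend on the scale. CPM divides by the pool total, and TMM factors (edgeR), which centre the pools on the bulk of genes, added 0.56, 0.60, 0.53 and 0.56 to every wound log2 fold (3 and 5 days in +/+, then 3 and 5 days in fl/fl), so the median of all genes at 3 days in +/+ went from -0.22 to 0.34. The distance of the members' median from that of all genes does not depend on this choice. It was 0.77, 0.83, 0.72 and 0.70 in the same 4 comparisons. It does depend on the level of the genes compared, since the distance from the median of genes of at least 100 CPM was only 0.35, 0.40, 0.31 and 0.28. With TMM factors, 75, 76, 75 and 74 of the 78 members were higher, where the medians of all genes were 0.34, 0.34, 0.31 and 0.35.

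**Figure D2:**
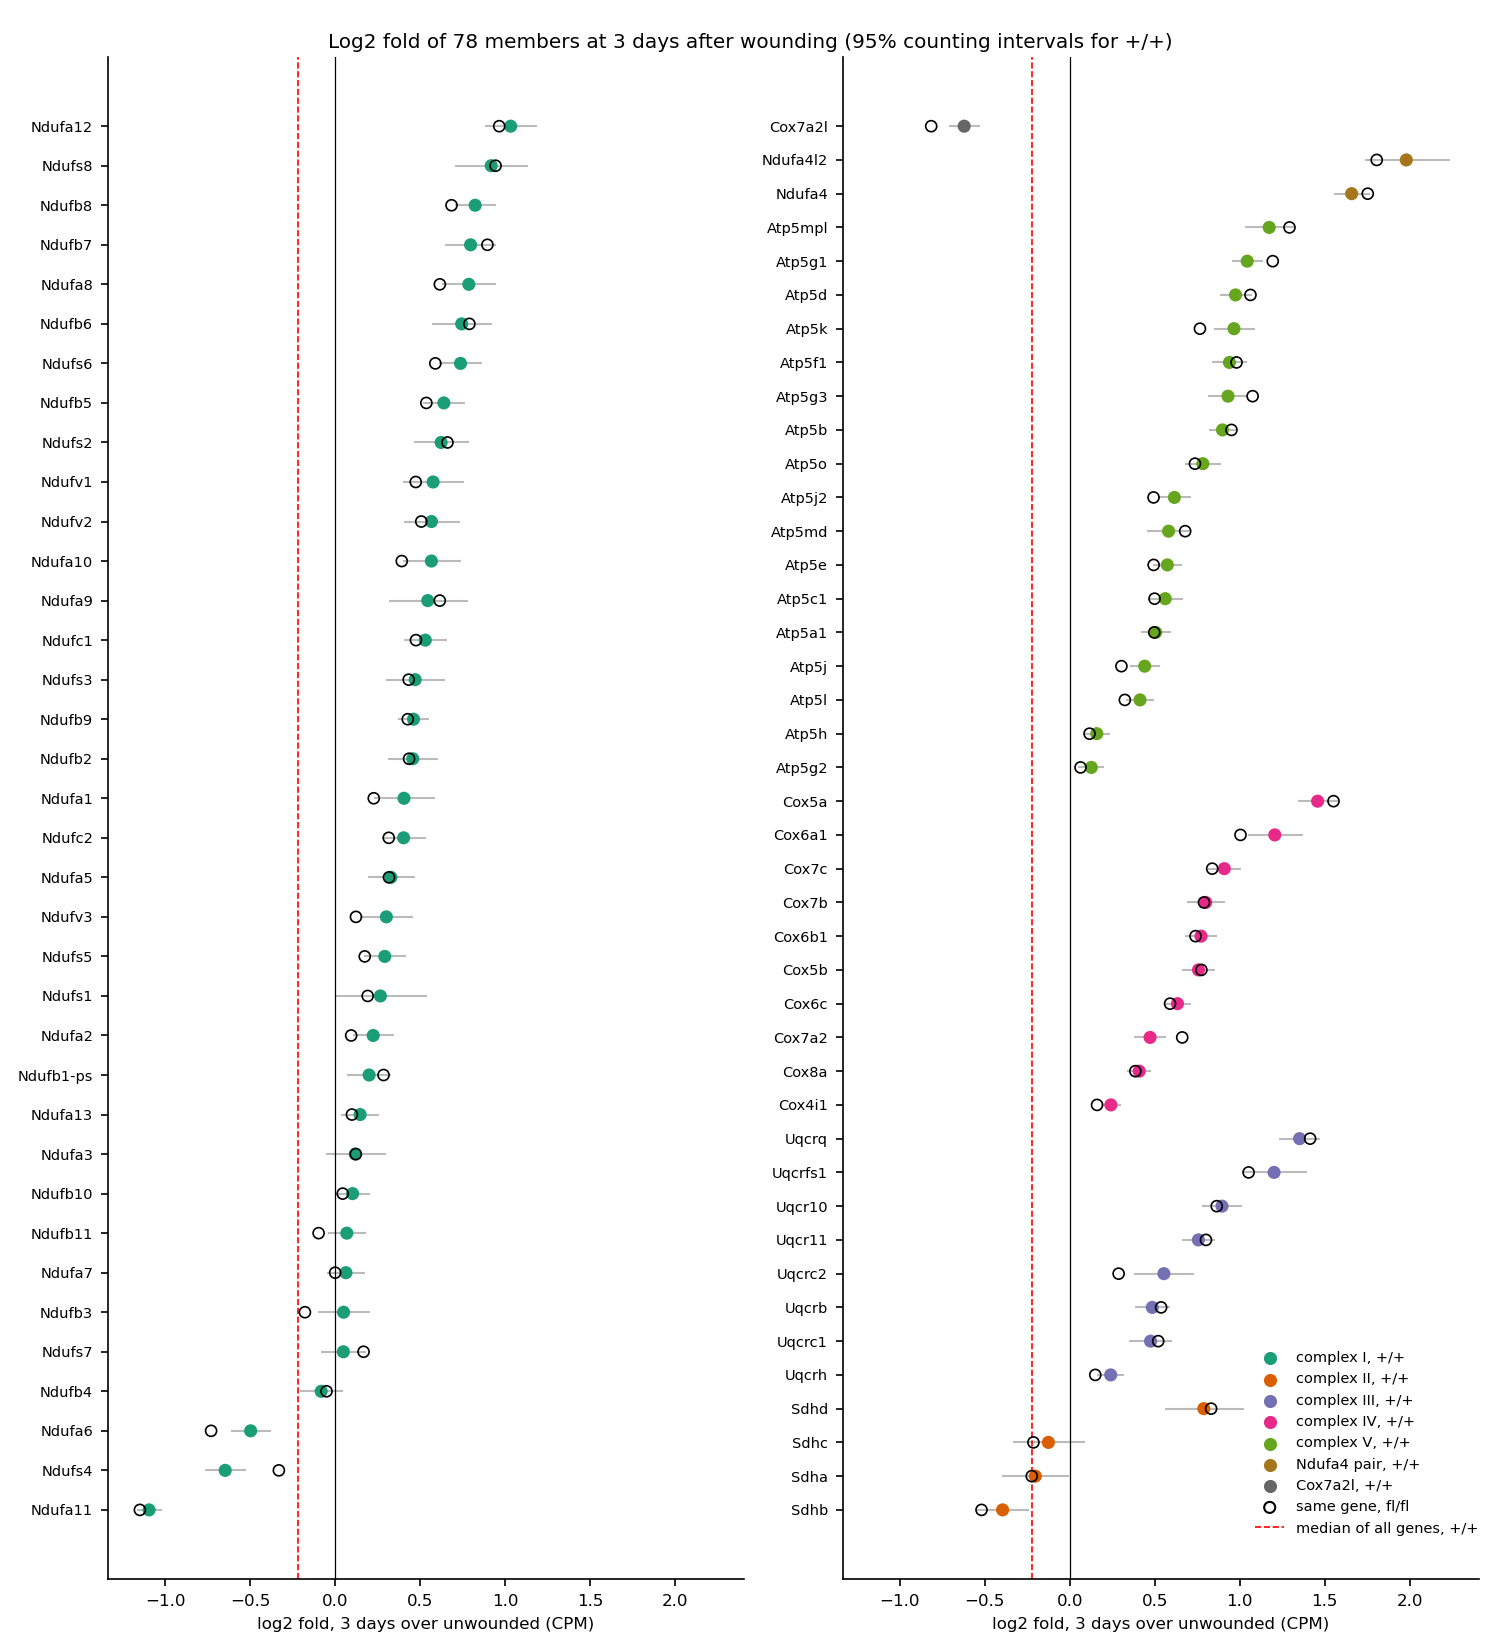
Log2 fold in CPM at 3 days over unwounded for the 78 measured members, complex I on the left and the others on the right; filled points with 95% counting intervals are +/+, open circles the same gene in fl/fl, and the dashed line is the median of all measured genes in +/+ (-0.22). Most members lie right of 0, the Ndufa4 pair, Cox5a and Uqcrq farthest, while Ndufa11 lies at -1.09; TMM scaling shifts all points right by 0.56 (+/+) or 0.53 (fl/fl), which leaves Ndufa11 below 0 and takes most of the other low genes to or past it.

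Complex I, the entry point for electrons from NADH, had members that spread widely in both directions. At 3 days in +/+ cells 32 of its 36 genes were higher, 9 of them (25%) by at least 1.5-fold, a share between the 20.7% of all genes and the 31.2% of genes of at least 100 CPM, and 2 were at least 1.5-fold lower. All 7 genes for core subunits, which hold the redox centres, were higher, with a median log2 fold of 0.57 and a range from 0.05 (Ndufs7) to 0.92 (Ndufs8). Among the 29 accessory subunits 25 were higher, with a median of 0.33. Ndufa12 had 108.9 and 115.5 CPM in the unwounded pools (+/+, fl/fl) and 222.9, 225.7, 227.9 and 232.7 CPM in the wounded ones, the largest upward log2 fold of complex I at 1.03 (0.88 to 1.19) in +/+ at 3 days. Ndufb8, Ndufb7 and Ndufa8 followed Ndufs8 with 0.82, 0.80 and 0.79.

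Ndufa11, an accessory subunit of the membrane arm (chr17:56717762-56724248), went against the rest. Its level was 525.1 CPM in unwounded +/+ and 557.4 CPM in unwounded fl/fl cells. Wounded cells had 246.0 (+/+) and 251.5 CPM (fl/fl) at 3 days, and 247.3 and 239.3 CPM at 5 days. The log2 folds were -1.09 (-1.17 to -1.02) and -1.15 at 3 days and -1.09 and -1.22 at 5 days, and the 4 wounded values lay close together, far from both unwounded ones. With TMM factors they were -0.54, -0.62, -0.49 and -0.66, so Ndufa11 was lower on both scales. It was found in 85.5% of unwounded and 96.9% of 3 day +/+ cells, and no single cell held more than 1.29% of its UMIs in any pool.

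Ndufs4, an accessory subunit of the NADH-oxidizing arm whose loss is a cause of Leigh syndrome, stood at 190.7 CPM in unwounded +/+ cells and 155.6 CPM in unwounded fl/fl cells. All 4 wounded pools lay between 119.7 and 123.7 CPM. The log2 folds at 3 days were -0.65 (-0.77 to -0.53) in +/+ and -0.33 in fl/fl, and with TMM factors they were -0.09 and 0.20. Ndufa6, an accessory subunit of the LYR protein family, stood at 195.3 and 228.4 CPM in unwounded cells and at 137.8 to 149.7 CPM in the wounded pools. Its log2 folds at 3 days were -0.50 (+/+) and -0.73 (fl/fl), or 0.06 and -0.20 with TMM factors. Over all cells both genes thus lay below the median of all genes, while their direction in +/+ or fl/fl turned or neared 0 with the scale. That position was kept only in part at a depth the sorts share. Within cells of 5000 to 15000 UMIs Ndufs4 had log2 folds of -0.09 and 0.07 at 3 days (+/+, fl/fl) and Ndufa6 0.01 and -0.25, where the medians of all genes were -0.14 and -0.05. Ndufa11 was lower there too, by log2 values of -0.55, -0.63, -0.74 and -1.09 (3 days +/+, 3 days fl/fl, 5 days +/+, 5 days fl/fl).

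Complex II, which oxidizes succinate and links the citrate cycle to the chain, was the only complex whose median lay below 0 in CPM, while with TMM factors its summed log2 fold was 0.53 at 3 days in +/+. Sdha, the flavoprotein, had 71.0 (+/+) and 72.0 CPM (fl/fl) in unwounded cells and 61.6, 61.6, 62.4 and 63.8 CPM in wounds (3 days +/+, 3 days fl/fl, 5 days +/+, 5 days fl/fl). Sdhb, the iron-sulfur subunit, had 117.2 and 135.7 CPM unwounded and 89.1, 94.6, 93.6 and 89.5 CPM in the same wounded pools. Sdhc, a membrane anchor, had 59.2 and 61.5 CPM unwounded and 54.3, 53.0, 48.2 and 48.1 CPM in wounds. Over all cells these 3 genes were lower in CPM in each of the 4 wounded pools than in both unwounded pools. The share of all genes lower in this way was not counted. Sdhd, the other anchor, was the exception, with 49.4 and 49.9 CPM unwounded and 85.2, 88.8, 83.2 and 83.8 CPM in wounds. The log2 folds at 3 days in +/+ were -0.20 (Sdha), -0.40 (Sdhb), -0.13 (Sdhc) and 0.79 (Sdhd), and with TMM factors 0.36, 0.16, 0.43 and 1.35, so the direction of the first 3 depends on the scale while their distance to Sdhd does not. Sdha to Sdhc stood near the median of all genes, which was -0.22. Within cells of 5000 to 15000 UMIs the directions varied between comparisons. At 3 days in +/+ the log2 folds were 0.14 for Sdha, 0.41 for Sdhb, -0.14 for Sdhc and 0.14 for Sdhd, so Sdhd did not stand apart there. In the other comparisons at that depth Sdhd was the highest of the 4 genes, with 0.40 (3 days fl/fl), 0.22 (5 days +/+) and 0.61 (5 days fl/fl). Sdha was below 0 in each of those.

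Complex III, which passes electrons from ubiquinol to cytochrome c, was higher throughout, with all 8 members above their unwounded level at 3 and 5 days in both genotypes. Uqcrq, a small subunit, stood at 176.8 and 179.6 CPM in unwounded cells and at 451.1, 478.4, 440.1 and 443.7 CPM in wounded cells (3 days +/+, 3 days fl/fl, 5 days +/+, 5 days fl/fl). Its log2 fold at 3 days in +/+ was 1.35 (1.23 to 1.47). Uqcrfs1, the Rieske iron-sulfur protein and one of the catalytic subunits, stood at 72.8 and 84.2 CPM unwounded and at 165.9 to 174.5 CPM in wounds, a log2 fold of 1.20 (1.01 to 1.39) at 3 days in +/+. For neither gene did wounded and unwounded pools overlap, and the share of all genes without such overlap was not counted. The log2 fold of Uqcrq at 3 days in +/+ was 0.58 within cells of 5000 to 15000 UMIs. Uqcrh, the hinge protein, had 419.9 and 437.8 CPM in the unwounded pools and the smallest differences of the 8, with log2 folds of 0.24 and 0.15 at 3 days and 0.30 and 0.08 at 5 days (+/+, fl/fl). Uqcrh has a pseudogene of its own name and overlaps another gene, and Uqcrq overlaps Gdf9, so some of their UMIs may belong elsewhere.

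All 10 measured complex IV genes, of the enzyme that reduces oxygen, were higher at 3 and 5 days in both genotypes. Cox5a, a matrix-side subunit (chr9:57517328-57532427), had 185.4 and 183.1 CPM in the unwounded pools and 509.2, 536.5, 489.2 and 497.5 CPM in the wounded ones. Its log2 folds were 1.46 (3 days +/+, interval 1.34 to 1.58), 1.55 (3 days fl/fl), 1.40 (5 days +/+) and 1.44 (5 days fl/fl), the largest outside the Ndufa4 pair. In the same order they were 0.84, 1.01, 0.82 and 0.82 within cells of 5000 to 15000 UMIs. Cox6a1, the ubiquitous form of a regulatory subunit, stood at 99.7 and 115.2 CPM unwounded and at 226.5 to 230.9 CPM in wounds. Cox4i1, a subunit at which ATP is known to bind, differed least, with 786.4 and 868.4 CPM unwounded and 892.1 to 970.1 CPM in wounds, a log2 fold of 0.24 at 3 days in +/+. The 3′ counts are not divided by length, so differences within a gene, rather than between genes, carry these comparisons.

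The remaining 7 complex IV genes, all tissue isoforms, were below 10 CPM. Cox7b2, Cox8b and Cox8c had 0 UMIs in every pool, where a count of 0 allows up to 0.926 CPM in the shallowest pool (unwounded +/+) and 0.0423 CPM in the deepest. Cox4i2, the lung and hypoxia isoform, had 0 UMIs in both unwounded pools and 7, 3, 8 and 3 UMIs in the wounded ones. Cox6a2, the heart and muscle form, had 1 UMI in each 5 day pool and 0 elsewhere, and Cox7a1 had at most 19 UMIs in a pool. The muscle marker list summed to between 3.10 and 8.11 CPM per pool and Ucp1, the defining gene of brown fat, was at 0 in every pool. Cox6b2, known mainly as a testis isoform, was the exception with 7.71 and 8.71 CPM in the unwounded pools (25 and 45 UMIs) and 2.48, 2.29, 2.88 and 2.03 CPM in the wounded ones. It made up 2.56% (1.67 to 3.76) and 2.74% of the UMIs of Cox6b1 and Cox6b2 in unwounded cells and 0.411% to 0.569% in wounds, and its UMIs were spread over cells, the fullest cell holding 8% of them or less.

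Complex V, the ATP synthase, had all 17 members higher in all 4 wound comparisons. Log2 folds at 3 days in +/+ ran from 0.13 (Atp5g2) to 1.17 (Atp5mpl). At least 1.5-fold higher were 9 members (52.9%), against 20.7% of all genes and 31.2% of genes of at least 100 CPM. Atp5b, the catalytic beta subunit, stood at 411.6 and 410.3 CPM in unwounded cells and at 766.8, 793.0, 752.3 and 776.6 CPM in wounds. Atp5mpl, a small membrane subunit, stood at 129.0 and 123.9 CPM unwounded and at 290.7 to 303.3 CPM in wounds. Medians were 0.57 for the 5 subunits of the F1 head, 0.61 for the 4 of the peripheral stalk, 0.93 for the 3 c ring genes and 0.61 for the 5 other membrane subunits, and the ranges of the 4 overlapped.

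Within the c ring the 3 genes, which encode the same mature protein with different import signals, gave other shares of the family's UMIs in wounds. Atp5g2 gave 47.4% (45.6 to 49.2) and 49.7% of them in unwounded cells and 32.9%, 31.7%, 34.01% and 33.4% in the wounded pools. Atp5g1 gave 33.3% (31.6 to 35.0) and 31.7% unwounded and between 43.1% and 44.3% wounded, and Atp5g3 19.3% and 18.6% unwounded and between 22.7% and 23.96% wounded. Atp5g1 had 316.9 and 303.7 CPM unwounded and 653.1, 694.5, 655.0 and 678.7 CPM in wounds. Atp5g2 had 451.4 and 476.5 CPM unwounded and 492.6 to 516.7 CPM in wounds. The shift in shares therefore came with a higher Atp5g1 and Atp5g3 beside a nearly level Atp5g2 in CPM. Shares do not depend on the scaling of the pools.

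**Figure D3:**
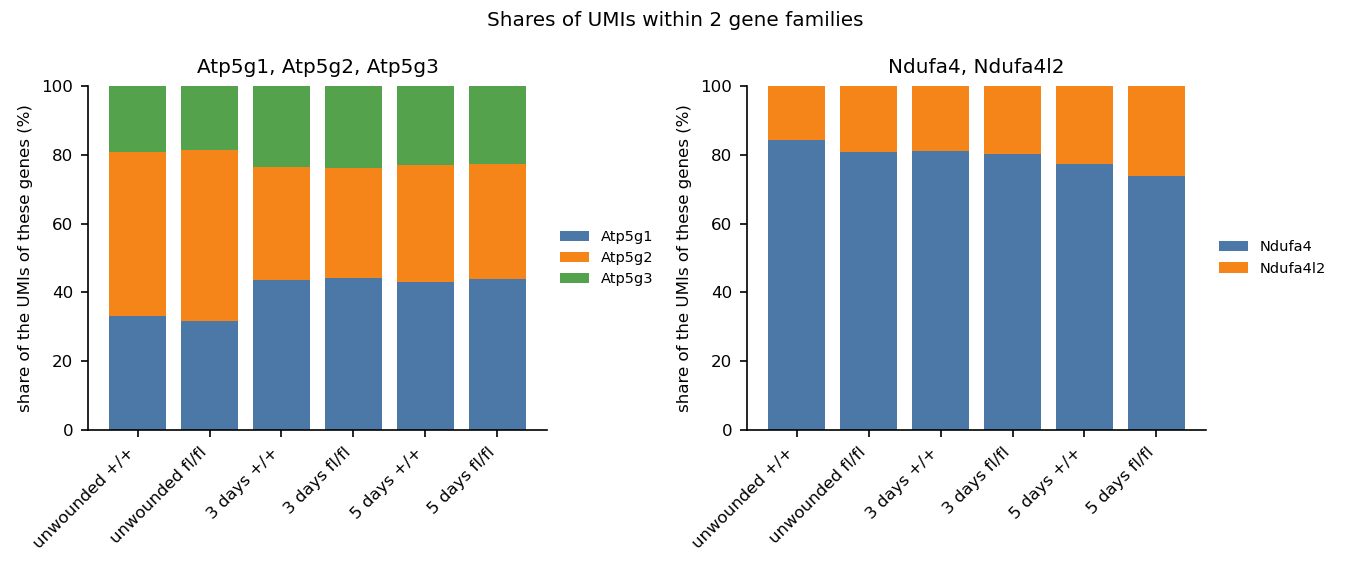
Share of the UMIs of a gene family, in percent, taken by each of its genes in the 6 pools: the ATP synthase c ring genes on the left and Ndufa4 with Ndufa4l2 on the right. The share of Atp5g2 is lower and that of Atp5g1 higher in the 4 wounded pools than in the unwounded ones; Ndufa4l2 takes between 15.6% and 26.0% of its pair.

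Ndufa4 and Ndufa4l2 had the 2 largest upward log2 folds among the members at 3 days in both genotypes. Ndufa4 (chr6:11900372-11907450) had 224.9 and 224.3 CPM in unwounded cells. It had 709.7 (+/+) and 755.7 CPM (fl/fl) at 3 days, and 566.4 and 571.9 CPM at 5 days. Its log2 folds were 1.66 (1.55 to 1.77) and 1.75 at 3 days and 1.33 and 1.35 at 5 days. They were smaller within cells of 5000 to 15000 UMIs, at 0.96, 0.91, 0.79 and 0.81 (3 days +/+, 3 days fl/fl, 5 days +/+, 5 days fl/fl). Both 3 day pools were above both 5 day pools, and the genotypes lay close together at each stage. Ndufa4l2 (chr10:127509274-127517154), whose protein lowers complex I activity under low oxygen, had 41.7 and 53.2 CPM unwounded and 164.2, 186.0, 166.9 and 201.4 CPM in the 4 wounded pools. Its log2 folds were 1.98 (1.73 to 2.24) and 1.81 at 3 days and 2.003 and 1.92 at 5 days. Its share of the pair's UMIs was 15.6% and 19.2% unwounded, 18.8% and 19.8% at 3 days and 22.8% and 26.0% at 5 days. Within cells of 5000 to 15000 UMIs Ndufa4l2 had 37.0 and 44.6 CPM unwounded and 85.9, 25.2, 51.0 and 90.5 CPM wounded, so in the 44 fl/fl cells of 3 days it was lower. Ndufa4l2 overlaps Shmt2, whose level went from 23.1 and 22.4 CPM to between 49.9 and 56.7 CPM. Whether the counting used strand is not given in the sources used here, so reads of these 2 genes may not be fully separable.

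Cox7a2l was lower in wounds on the CPM scale. No protein or supercomplex was measured. Unwounded cells had 327.7 and 354.7 CPM and the wounded pools 212.9, 201.5, 229.4 and 199.1 CPM, with log2 folds of -0.62 (-0.71 to -0.53), -0.82, -0.51 and -0.83 (3 days +/+, 3 days fl/fl, 5 days +/+, 5 days fl/fl). With TMM factors these were -0.06, -0.28, 0.08 and -0.27. Within cells of 5000 to 15000 UMIs, a depth that both sorts share, the direction turned, with 368.9 and 376.1 CPM in unwounded and 467.4, 382.6, 466.8 and 385.4 CPM in wounded cells. In the wounded pools it stood lower the deeper the cells, at 255.4 to 317.0 CPM in cells of 15000 to 40000 UMIs and 170.9 to 183.2 CPM in deeper ones. Which of depth and cell kind carries the difference was not tested.

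The members' promoters were searched for the binding letters of factors known to drive nuclear genes of mitochondria. RefSeq windows of 300 bases (250 before to 50 after the start, GRCm38.p6) were at hand for 69 of the 85 members. On either strand, the NRF1 letters (the half-site GCGCA followed directly by its reverse complement TGCGC) were found in 5 members (7.25%) and in 1.47% of 17492 protein-coding genes. The YY1 letters AAGATGGCG were found in 7 members (10.1%), against 2.14% of genes, and the ETS letters CCGGAAG, which GABP factors bind, in 17 members (24.6%), against 12.9% of genes. The SP letters GGGCGG (40.6% against 49.2%) and the HIF letters ACGTG (26.1% against 23.2%) were about as common as elsewhere or less so, and the ATF4 letters TGATGNAAN were in 0 members, against 4.11% of genes. The ETS letters end and the YY1 letters begin in AAG, so a run of bases can hold both. No binding was measured, and a match is only a match of letters.

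Promoter windows of 4 members, 2 of them far above and 2 below the members' median in wounds, are printed 5′ to 3′ on the gene's strand, from RefSeq on GRCm38.p6, because 3 of them share the NRF1 letters while their log2 folds were opposite or unequal. Capitals mark the NRF1, ETS and YY1 letters on either strand. The first is Ndufa4 (chr6:11907401-11907700, minus strand), with none of the 3, then Cox6a1 (chr5:115348909-115349208, minus strand), Atp5g2 (chr15:102670998-102671297, minus strand) and Ndufa11 (chr17:56717512-56717811, plus strand).
Ndufa4: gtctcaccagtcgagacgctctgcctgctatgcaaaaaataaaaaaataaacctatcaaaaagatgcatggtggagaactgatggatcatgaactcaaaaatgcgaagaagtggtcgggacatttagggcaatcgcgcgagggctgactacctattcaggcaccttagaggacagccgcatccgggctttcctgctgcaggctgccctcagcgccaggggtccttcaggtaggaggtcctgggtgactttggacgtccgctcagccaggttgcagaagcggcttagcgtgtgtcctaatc
Cox6a1: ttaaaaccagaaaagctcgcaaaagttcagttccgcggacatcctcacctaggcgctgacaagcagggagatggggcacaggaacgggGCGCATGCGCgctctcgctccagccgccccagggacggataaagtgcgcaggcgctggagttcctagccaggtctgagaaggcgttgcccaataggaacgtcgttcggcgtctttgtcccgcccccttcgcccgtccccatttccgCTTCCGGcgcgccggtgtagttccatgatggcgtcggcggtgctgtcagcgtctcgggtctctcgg
Atp5g2: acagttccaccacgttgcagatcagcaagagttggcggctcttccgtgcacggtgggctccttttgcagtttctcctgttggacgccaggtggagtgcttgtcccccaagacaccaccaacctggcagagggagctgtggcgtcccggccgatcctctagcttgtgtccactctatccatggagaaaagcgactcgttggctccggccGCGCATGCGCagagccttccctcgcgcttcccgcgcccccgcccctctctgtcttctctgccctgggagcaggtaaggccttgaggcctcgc
Ndufa11: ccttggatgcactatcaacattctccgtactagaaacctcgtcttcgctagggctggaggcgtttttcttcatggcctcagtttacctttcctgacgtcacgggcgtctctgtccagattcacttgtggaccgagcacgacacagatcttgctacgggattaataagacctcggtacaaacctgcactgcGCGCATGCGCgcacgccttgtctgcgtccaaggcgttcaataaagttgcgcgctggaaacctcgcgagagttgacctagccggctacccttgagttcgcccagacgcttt

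The NRF1 letters stood in Cox6a1 (log2 fold 1.21 at 3 days in +/+), Atp5g2 (0.13) and Ndufa11 (-1.09) alike, and also in Atp5k and Uqcrc1. At 3 days in +/+, members with the NRF1 letters had a median log2 fold of 0.47 over 5 genes and those without 0.56 over 60 genes. With the ETS letters the median was 0.58 over 17 genes and without 0.54 over 48, and with the YY1 letters 0.53 over 7 genes and without 0.57 over 58. In this comparison the medians with and without each set of letters lay close together, over few genes for NRF1 and YY1. Whether the letters bear on the size of the difference was not tested.

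Other genes of the mitochondrion, in lists drawn up with earlier results of these data known, were unlike one another at 3 days in +/+. The mitochondrial-encoded subunits had a median log2 fold of -0.41, with 1 of 13 higher (mt-Nd1, 0.06) and mt-Nd2 lowest at -0.71. Of 45 assembly factors, which build the complexes and are not part of them, 38 were measured and 17 were higher, with a median of -0.06. Uqcc1 (-1.22), Surf1 (-1.18) and Sco2 (1.14) lay at the ends. The 4 subunits and partners with other names were all higher (Cycs, cytochrome c, 1.38, Cyc1 1.29, Ndufab1 0.83 and Atpif1 0.64). Of the carriers and import proteins 16 of 18 were higher (median 0.89), Tomm40, the import pore, most (1.41). Citrate cycle enzymes were higher in 12 of 17, with a median of 0.43, from -0.61 (Idh2) to 1.09 (Mdh2). Regulators of mitochondrial biogenesis were higher in 3 of 10, with a median of -0.27. Glycolysis genes had a median of 1.79, with 14 of 15 higher, and targets of hypoxia 1.51, with 8 of 9 higher (Vegfa 2.87), so the members' median of 0.55 lay below that of glycolysis and above that of the assembly factors in the same pools. With TMM factors each of these medians is 0.56 higher.

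Member levels differed between cell kinds within the wounded pools as well. Clusters were made without the members and without mitochondrial genes, and are named only where their markers allow it. Among clusters with at least 50 cells of a pool, the members summed to between 14974 CPM (cluster 14, led by Lce3c and Crct1, 3 days +/+) and 29066 CPM (cluster 6, led by Lgi2 and Scpep1, 3 days +/+) in wounds. The 2 cycling-like clusters stood at 24356 to 27699 CPM, the suprabasal-like cluster at 22159 to 22310 CPM, the wound edge-like cluster at 21564 to 23808 CPM and the sebaceous-like cluster at 24043 and 27988 CPM. Bulge-like cells in unwounded skin stood lower, at 15553 (+/+) and 16518 CPM (fl/fl). The few bulge-like cells in wounds (40, 12, 26 and 8) stood at 19726, 21167, 18300 and 17697 CPM, above unwounded bulge-like cells in all 4 pools and below most other wounded clusters, at a median depth of 9673 to 10951 UMIs. These groups differ in make-up. Cluster 13 gave 33, 7, 15 and 3 of the wounded bulge-like cells, against 23 (+/+) and 44 (fl/fl) of the unwounded ones. Unwounded values include 50 (+/+) and 40 (fl/fl) cells of cluster 15, whose member level was far lower. A difference within a single cell kind therefore cannot be told apart from make-up.

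**Figure D4:**
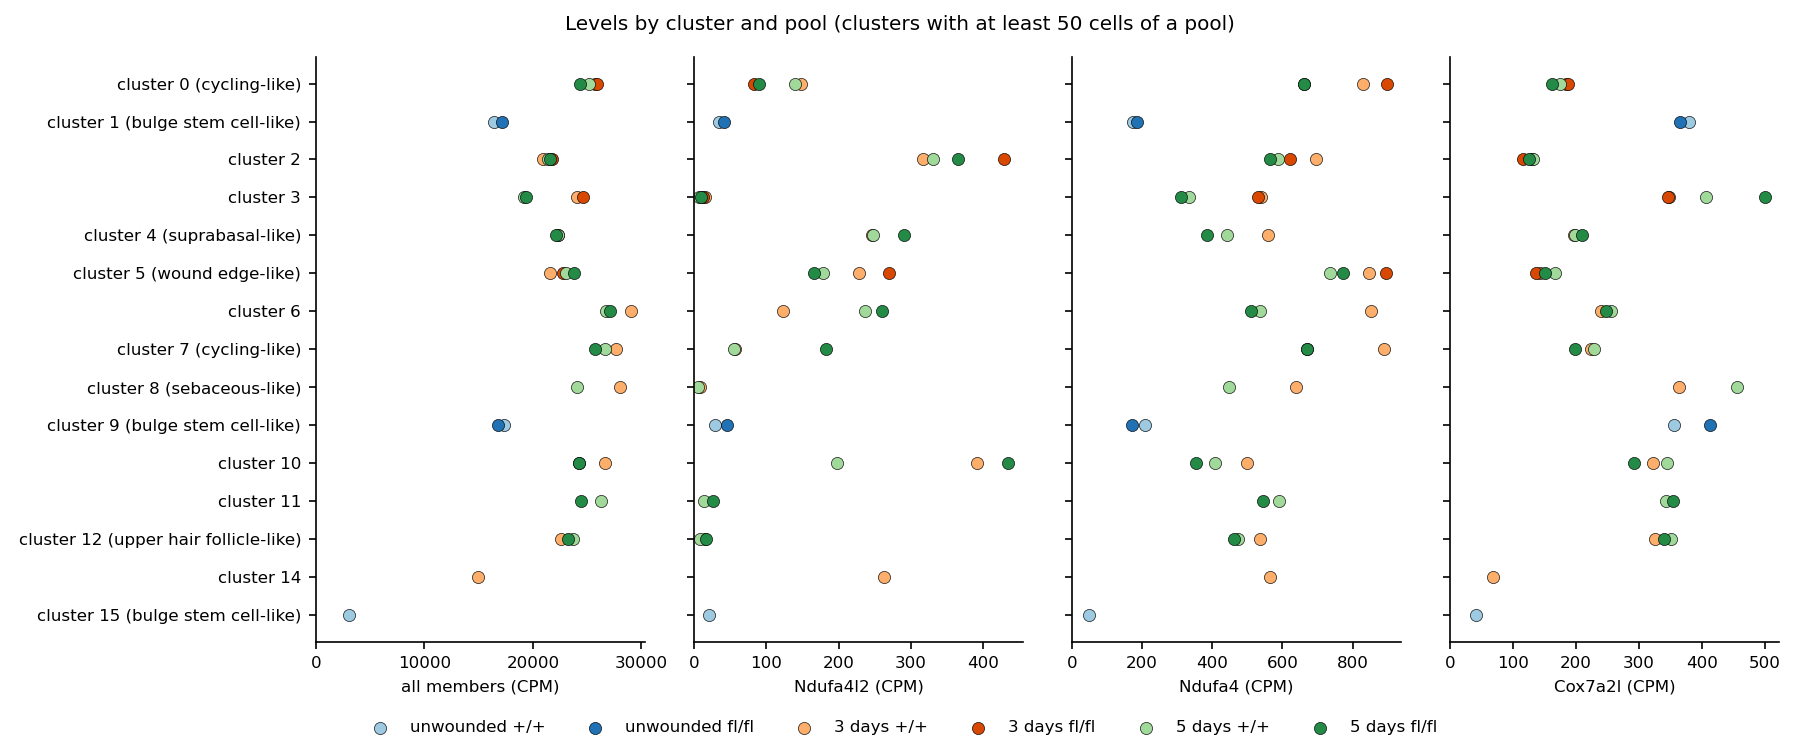
CPM of all members, Ndufa4l2, Ndufa4 and Cox7a2l in each cluster, with 1 point per pool of at least 50 cells in the cluster. Unwounded bulge-like clusters 1 and 9 lie at the low end for all members and Ndufa4, Ndufa4l2 ranges from 6.6 CPM in sebaceous-like to 433.8 CPM in cluster 10, and cluster 15 lies far below the rest for all members.

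Some single members differed between clusters as well. Ndufa4l2 stood at 197.5 to 433.8 CPM in cluster 10 (led by Tspear, Sox6 and Wnt16), 316.9 to 428.4 CPM in cluster 2 (led by Tmem45b and Il33) and 246.1 to 289.8 CPM in suprabasal-like cells. In the same wounded pools it stood at 6.6 and 9.2 CPM in sebaceous-like, 8.7 to 16.7 CPM in upper hair follicle-like and 7.8 to 15.01 CPM in cluster 3 cells, below the 29.9 to 46.1 CPM of unwounded bulge-like clusters 1 and 9. So its higher level in wounds was carried by some clusters and was absent from others. Barcodes of 100 to 400 UMIs, which hold free RNA in place of a cell, had it at 125.7 CPM. Ndufa4 had no such split and was above the unwounded bulge-like clusters in every wounded cluster of at least 50 cells of a pool, from 311.1 CPM (cluster 3) to 896.3 CPM (cycling-like cluster 0). Ndufa11 stood at 173 to 330 CPM in every wounded cluster of at least 50 cells, yet at 571.6, 480.4, 678.1 and 531.5 CPM in the few bulge-like cells of wounds, close to the 557.8 and 593.7 CPM of unwounded bulge-like cells. Cluster 3, which carries bulge markers beside melanocyte genes, did not share that level. Its Ndufa11 stood at 328.5, 311.7, 329.8 and 296.8 CPM (3 days +/+, 3 days fl/fl, 5 days +/+, 5 days fl/fl). Cox6b2 stood at 7.1 to 12.4 CPM in cluster 3 and at 7.7 and 9.7 CPM in sebaceous-like cells, but at 2.6 CPM or less in suprabasal-like and wound edge-like cells.

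Cluster 15 stood apart from all others. It held 50 of the 406 unwounded +/+ cells and 40 of the 662 unwounded fl/fl cells, with 7 of 8 bulge markers raised and a median of 4694 UMIs. In +/+ its members summed to 3035 CPM, against 16448 CPM in bulge-like cluster 1 of the same pool, while mitochondrial-encoded subunits stood at 80242 CPM against 49567 CPM. All 5 complexes were lower there, yet Ndufs4 stood at 344.1 CPM against 190.1 CPM. Without cluster 15 the wound medians were 0.46 and 0.47 in +/+ (3 and 5 days) and 0.45 and 0.44 in fl/fl, with 65, 67, 66 and 63 of 78 members higher.

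Within a pool, cells with a larger share of mitochondrial-encoded UMIs had a smaller share of member UMIs in unwounded skin, with a correlation over cells of -0.62 in 406 +/+ cells and -0.45 in 662 fl/fl cells, and of -0.23 to -0.03 in the wounded pools. Both shares have the same total as denominator and come from 1 capture, so these values are descriptions. The cell filter of at most 10% mitochondrial UMIs bears on this. With no such limit the members summed to 14393 and 15228 CPM in unwounded pools and 21705 to 22505 CPM in wounded ones, and mitochondrial-encoded subunits to 68357 and 64702 CPM against 54440 to 58849 CPM, so in CPM both directions were the same with and without the limit. In cells of 5000 to 15000 UMIs (338, 564, 125, 44, 173 and 70 cells) the members summed to 16252 and 16917 CPM in unwounded and 20449, 20185, 19652 and 19954 CPM in wounded cells. At that depth the wound medians were 0.35, 0.27, 0.32 and 0.26 (3 days +/+, 3 days fl/fl, 5 days +/+, 5 days fl/fl), smaller than in all cells. At least 1.5-fold higher there were 12.7%, 11.4%, 14.1% and 11.5% of the measured members, close to or below the 11.3%, 15.8%, 12.9% and 16.1% of all genes, so the larger share of members past 1.5-fold was not seen at that depth. The members' median still lay above that of all genes by 0.49, 0.32, 0.47 and 0.32, and the mitochondrial-encoded subunits were not lower in wounds, with 49154 and 49387 CPM unwounded and 49985 to 61721 CPM wounded.

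Between genotypes the members differed little, and none passed 1.5-fold in either direction at any stage. In unwounded skin the median log2 fold of fl/fl over +/+ was 0.08 and 63 of 78 members were higher, where 1.08% of all genes passed 1.5-fold upward, 2.93% downward, and the median of all genes was -0.04. At 3 days the median was 0.05 with 63 higher, where 0.143% of all genes passed 1.5-fold upward and 0.806% downward. At 5 days it was 0.00 with 42 higher and 36 lower, against 0.171% and 1.9% of all genes past 1.5-fold. Of all genes, 42.5% (unwounded), 43.6% (3 days) and 54.8% (5 days) were higher in fl/fl. Counting intervals lay wholly above 0 for 20 members in unwounded skin (6.48% of all genes) and below 0 for 1 (12% of all genes). At 3 days they lay above 0 for 37 members (12.9% of all genes) and below 0 for 1 (22.3%), and at 5 days above 0 for 17 (28%) and below 0 for 23 (23.1%). A member's interval reached, at the median, 0.15 to each side in unwounded skin and 0.05 and 0.03 at 3 and 5 days, so small differences passed it in the deep wounded pools. The split at 5 days depended on the scale, with 52 of 78 members higher with TMM factors and 25 with totals that leave out mitochondrial and ribosomal protein genes. The members' medians on those scales were 0.02 and -0.01, and those of all genes 0.03 and -0.003. Leaving out cluster 15, which holds a larger part of the +/+ than of the fl/fl pool, brought the unwounded median to 0.03 with 51 members higher.

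A few members stood out within that narrow range. Ndufa4l2 was higher in fl/fl at each stage, with log2 folds of 0.35 (0.05 to 0.66) in unwounded skin, 0.18 (0.13 to 0.23) at 3 days and 0.27 (0.23 to 0.31) at 5 days. Within cells of 5000 to 15000 UMIs the wounded values were -1.77 and 0.83, over few cells. Clusters differed, with Ndufa4l2 lower in fl/fl in cycling-like cluster 0 (148.7 and 82.9 CPM at 3 days, 139.6 and 90.4 CPM at 5 days, +/+ first) and higher in cluster 10 at 5 days (197.5 and 433.8 CPM), which held 79 +/+ and 136 fl/fl cells. Cox7a2, the ubiquitous isoform of a small complex IV subunit, had 296.8 (+/+) and 306.4 CPM (fl/fl) without a wound. At 3 days it had 411.6 and 484.4 CPM, and 414.5 and 458.0 CPM at 5 days. Its log2 folds were 0.05, 0.23 (0.20 to 0.27) and 0.14 (0.12 to 0.17), the largest upward difference of any member at 3 days. Those of 3 and 5 days were 0.03 and 0.05 within cells of 5000 to 15000 UMIs. Uqcrc2, a core protein of complex III, was 0.32 (0.11 to 0.53) higher in fl/fl in unwounded skin and 0.05 higher in wounds. Ndufs4 was lower in unwounded fl/fl cells by a log2 value of -0.29 (-0.45 to -0.14), or -0.23 without cluster 15, and 0.02 apart in wounds. At 5 days Cox7a2l (-0.20), Ndufa1 and Uqcrh (-0.16 each) were lowest. Cox7a2 overlaps Tmem30a and another gene, so its UMIs may include theirs.

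**Figure D5:**
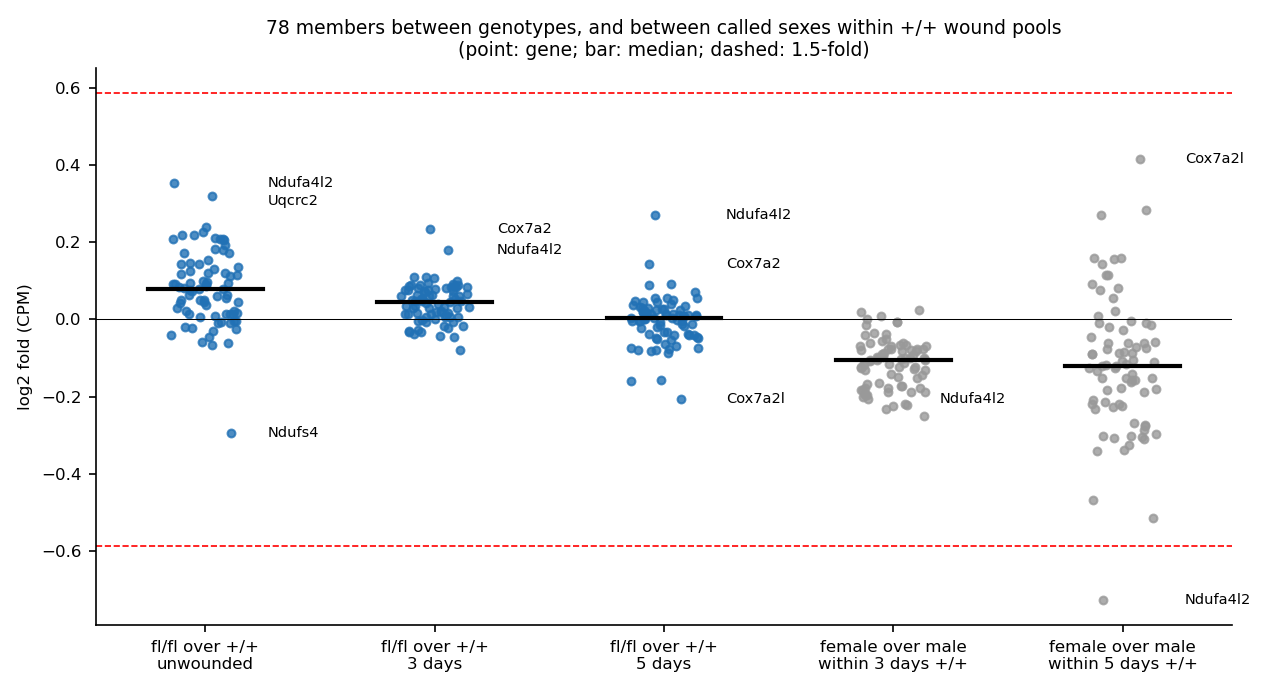
Log2 fold in CPM of the 78 measured members for fl/fl over +/+ at each stage (blue) and, within the wounded +/+ pools, for cells called female over cells called male (grey); each point is a gene, bars are medians and dashed lines mark 1.5-fold. Genotype medians are 0.08, 0.05 and 0.00, and the female over male values within +/+ have medians of -0.10 and -0.12, with Ndufa4l2 at -0.72 at 5 days.

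The pools also differed in the sex of their cells, and its part in these small differences was not tested. The labels give pooled males and females, but cells called female by Xist made up 31.1% of the +/+ pool at 3 days and 23.7% at 5 days, and 0 of the other 4 pools. Within the +/+ pool at 3 days, female-called cells lay below male-called ones, the 78 members having a median log2 fold of -0.10 and 2.25% against 2.42% of UMIs. At 5 days the median was -0.12, from -0.72 (Ndufa4l2) to 0.42 (Cox7a2l). Set against male-called +/+ cells alone, the fl/fl medians were 0.01 (42 of 78 higher) at 3 days and -0.02 (23 higher) at 5 days. For Ndufa4l2 they were 0.17 and 0.18, and for Cox7a2 0.18 and 0.10, so both stayed higher in fl/fl in that comparison. It used all fl/fl cells, of which 78 (3 days) and 130 (5 days) had no sex call. With only the female-called cells left out of +/+, the members' medians were 0.02 and -0.02 at 3 and 5 days. Those of all genes were then -0.02 and 0.02. Female-called cells come from other animals than male-called ones, and sex and animal cannot be told apart.

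In the other lists, fl/fl cells at 5 days stood higher in glycolysis genes (median 0.23, 13 of 15 higher) and hypoxia targets (0.22, 8 of 9 higher), where 54.8% of all genes were higher, while the mitochondrial-encoded subunits had a median of -0.01. At 3 days hypoxia targets had a median of -0.03 with 4 of 10 higher, while Ndufa4l2 was higher in fl/fl. In unwounded skin the glycolysis median was -0.11. No list was tested, and the genotype of a pool cannot be told apart from its animals.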

How the data were processed

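Single-cell 3′ RNA and hashtag UMI counts were measured in 6 pools. Per the submitters' processing notes, the authors made the deposited counts with Cell Ranger 7.1.0 on mm10 and used Seurat 4.3.0. How intronic, antisense and multimapping reads were counted is not given in the sources used here, and the processed objects that the authors made were left aside. Of 9829 barcodes with at least 1000 UMIs and 500 genes, 2929 above 10% mitochondrial UMIs were left out. HTODemux (Seurat 5.3.0, R 4.3.3, quantile 0.99) gave 5659 singlets, which were kept, 503 doublets and 738 negatives. Doublets of 1 hashtag remain, and no other doublet caller was run.

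UMIs were summed per pool (CPM). Folds carry exact conditional binomial, levels Poisson and shares Clopper-Pearson intervals (scipy 1.17.1), and the calculation was tested on simulated data. Genes with a pool mean of at least 10 CPM count as measured. TMM factors come from edgeR 4.0.16. Clusters (scanpy 1.11.5, Python 3.11.15, Leiden resolution 1, 30 principal components, 15 neighbours) took names from markers, by a rule tightened after the data were seen, as were the sex calls added. Named were the 8 highest and 8 lowest folds among members of at least 20 CPM, isoform families, Sdha to Sdhd and up to 3 genes per other list, and members named outside this rule (such as Ndufa12, Ndufs8, Ndufs7, Ndufb8, Ndufb7, Ndufa8 and Atp5b) were picked after their values were seen. Members and lists were chosen with earlier results of these data known. Figures used matplotlib 3.10.9.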

Additional observations from a re-analysis of the deposited data

Results flagged for a closer look

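In CPM, Ndufb11, an X-linked accessory subunit of complex I, stood on opposite sides of its unwounded level in the 2 genotypes at 5 days. Its log2 fold was 0.15 (0.04 to 0.26) in +/+ cells, with 216.9 CPM unwounded and 241.1 CPM at 5 days, and -0.11 (-0.19 to -0.02) in fl/fl cells, with 244.2 and 227.1 CPM. TMM factors added 0.60 (+/+) and 0.56 (fl/fl) to these log2 folds, which puts both above 0. The opposite signs therefore depend on the scale. With 1 pool per condition, the difference between the genotypes was not tested. Ndufb11 overlaps Rbm10, and of these 4 pools only +/+ at 5 days holds female-called cells.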

How the results depend on the processing

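The members' median was above 0 in all 4 wound comparisons under each alternative run. With TMM factors the wound medians were 1.11 (3 days +/+), 1.16 (5 days +/+), 1.03 (3 days fl/fl) and 1.04 (5 days fl/fl), and 70, 71, 66 and 66 members passed 1.5-fold, while the share of all genes past 1.5-fold upward was 40.6%, 39.98%, 39.4% and 40.5%. Within cells of 5000 to 15000 UMIs, an alternative chosen after seeing the data, the medians were 0.35, 0.32, 0.27 and 0.26 in the same order and 10, 11, 9 and 9 members passed 1.5-fold upward, shares close to or below those of all genes. In those cells the genotype median at 3 days turned to -0.022. Between genotypes, 1 of 79 members passed 1.5-fold downward at 3 days, against 984 of 8381 genes. At 5 days 1 of 78 passed it upward, against 705 of 8375 genes (Ndufa4l2 in both cases). Among the wound folds at that depth, Cox7a2l turned to 0.34 (3 days +/+), 0.024 (3 days fl/fl) and 0.035 (5 days fl/fl) and Ndufa4l2 to -0.82 (3 days fl/fl, 44 cells). Leaving out cluster 15 was likewise chosen after seeing the data. With a limit of 5% mitochondrial UMIs the +/+ medians were 0.40 and 0.42, and with 20% the fl/fl median at 3 days was 0.60.

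Summed member levels are given for unwounded +/+, unwounded fl/fl, 3 days +/+, 3 days fl/fl, 5 days +/+ and 5 days fl/fl. With a limit of 5% they were 17882, 17901, 23502, 24296, 23820 and 23847 CPM, with 20% 14425, 15340, 22785, 23529, 22575 and 22654 CPM, and with no limit 14393, 15228, 21940, 22505, 21732 and 21705 CPM. With at least 20 hashtag UMIs and 70% of them in the top hashtag, the first 5 were 16090, 16948, 23535, 24514 and 23568 CPM. With MULTIseqDemux they were 15880 and 16736 CPM unwounded, 24487 CPM (3 days fl/fl) and 23746 CPM (5 days fl/fl), and with at least 2000 UMIs 16568 and 17392 CPM unwounded. The causes of these shifts were not tested. No paired analysis was possible because each condition is 1 pool. The unwounded +/+ pool, with 3241223 UMIs, limits the precision of every wound comparison in +/+.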
